A study of Mus musculus with 11 samples.

Results

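Matrix proteases and their inhibitors were followed as 70 genes of the 18193 genes with a probe set of their own. They were every gene on the array whose single annotated symbol belongs to the Adam, Adamts or Adamts-like, Mmp or Timp series, with the probe set of highest mean signal standing for the gene. The families comprised 28 ADAM genes, 20 ADAMTS and ADAMTS-like genes, 18 MMP genes and 4 TIMP genes. RNA came from pooled mouse hearts at embryonic day 9.5, measured on 11 one-colour oligonucleotide arrays. Conditional knockout (CKO) labelled hearts carried Gata4 flox/flox and Nkx2-5 cre/+ (5 arrays). Double heterozygous hearts carried Gata4 flox/+ and Nkx2-5 cre/+ (3 arrays), and control hearts carried Gata4 flox/+ and Nkx2-5 +/+ (3 arrays). All 3 groups therefore held at least 1 floxed Gata4 allele, the controls held no Cre, and the CKO-labelled and control hearts differed in both loci. Cre was expressed from the Nkx2-5 locus, which is active in heart progenitors and heart muscle, and Gata4 codes for a DNA-binding factor of heart development. The labels give neither the number of hearts in a pool nor their litters, so p-values measure the spread between these samples.

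At this stage the heart tube is a muscle layer and an endothelial lining separated by cardiac jelly, a matrix rich in hyaluronan and the proteoglycan versican. ADAMTS proteases are secreted enzymes, several of which cut versican. Matrix metalloproteinases (MMPs) cut collagens and other matrix proteins, and TIMPs are the secreted proteins that block them. Most ADAM proteins sit in the cell membrane, where the active members release the outer parts of receptors, ligands and adhesion proteins. Many other ADAM genes are known for their expression in testis, and some have no working catalytic site.

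Values are normalised log2 intensities, that is log2(deposited intensity + 16) after quantile normalisation, and each difference is CKO-labelled minus the other group, or double heterozygous minus control, on that scale. Levels of different probe sets were not set against each other, because probes differ in how brightly they hybridise. The deposited intensities averaged 117.2 in CKO replicate 3 and 166.4 to 175.6 in the other 10 arrays, and the 3' minus 5' signal of actin, a measure of RNA integrity, was 0.295 to 0.45 in 10 arrays and 1.0 in CKO replicate 2. These 2 arrays stood apart from the rest. Values of Timp1, Timp3, Adam6b, Adam10, Adam12, Adam15, Adam17, Adam19, Adamtsl2, Mmp14 and Mmp17 are also given without 1 or both of them. This choice was made after seeing the data. Markers of heart muscle were present in every group, with summed intensities over 8 genes of 50620 to 54020 in CKO-labelled, 52130 to 54090 in double heterozygous and 51780 to 52320 in control arrays. For 3 neural crest markers, the mean difference from the control average was 1.04 in CKO replicate 3 and -0.086 to 0.435 in the other arrays. CKO replicate 3 thus stood apart in these markers as well as in intensity. The brighter Gata4 probe set was called higher in CKO-labelled than in control hearts, by 0.45 (limma adjusted p = 0.0321): it averaged 9.43 ± 0.11 in CKO-labelled (SD, n = 5), 9.31 ± 0.097 in double heterozygous (n = 3) and 8.98 ± 0.19 in control arrays (n = 3). The dimmer Gata4 probe set averaged 8.12 ± 0.97 in CKO-labelled, 8.44 ± 0.19 in double heterozygous and 8.03 ± 0.10 in control arrays, and differed from control by 0.08 (adjusted p = 0.958). Nkx2-5, of which the Cre-carrying hearts have 1 unmodified allele, averaged 9.34 ± 0.34 in CKO-labelled, 9.48 ± 0.097 in double heterozygous and 9.87 ± 0.055 in control arrays, and its difference from control of -0.53 was not called (adjusted p = 0.0990). No label says whether the Gata4 probes lie in the deleted part, so they do not check the labels. In RNA of a whole heart, fewer cells of a type and less RNA per cell cannot be told apart.

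Of the 70 genes, 1 was called different between CKO-labelled and control hearts, the versican-cutting protease gene Adamts9, which was higher. This was 1.43% of the members, against 2.09% of all genes, 1.25% higher and 0.841% lower (limma, adjusted p under 0.05 over all probe sets), a share near the background. No member was called between CKO-labelled and double heterozygous hearts, where 0.55% of all genes were (0.445% higher and 0.104% lower). None was called between double heterozygous and control hearts, where 0% of all genes were. At an unadjusted p under 0.05 the counts were 7, 2 and 1 members (10%, 2.86% and 1.43%), against 15.5%, 13.3% and 2.91% of all genes. An F-test over the 3 groups called 1 member, again Adamts9, and 1.47% of all genes. The members split evenly for CKO-labelled minus control, 35 above and 35 below 0, with a median difference of 0.01 against -0.02 over all genes. For CKO-labelled minus double heterozygous the median was 0.04 against -0.01, and for double heterozygous minus control 0.02 against -0.00.

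**Figure D1:**
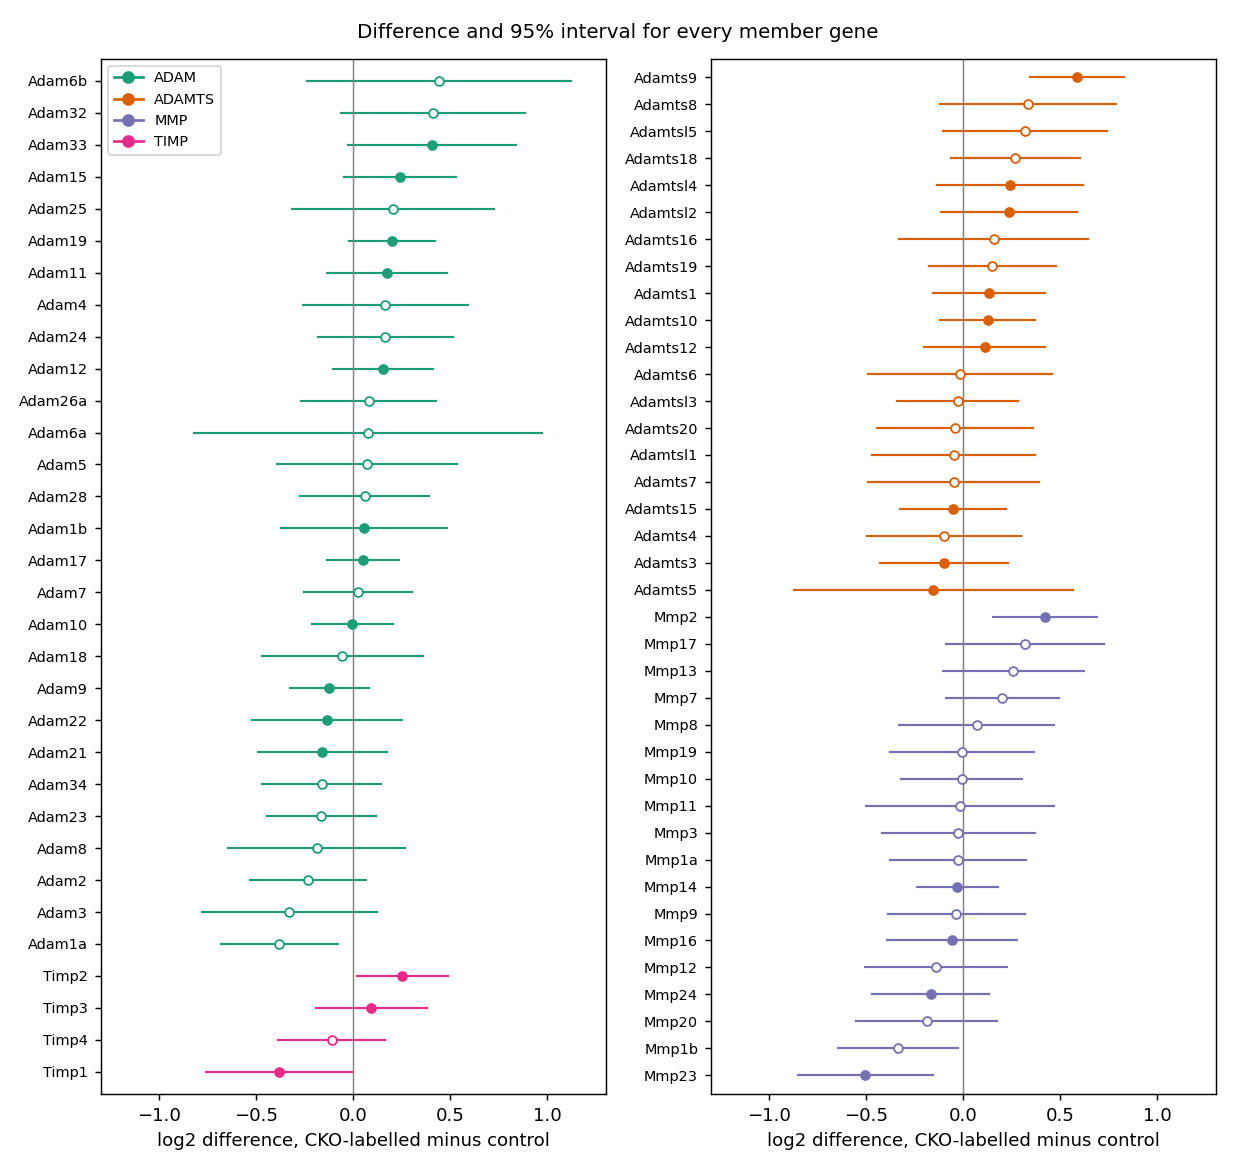
Difference in normalised log2 intensity between CKO-labelled and control hearts for each of the 70 genes, with its 95% interval from the model, sorted within ADAM, TIMP, ADAMTS (with ADAMTS-like) and MMP genes. Filled points have a mean signal above the median of all probe sets (28 genes) and open points do not (42 genes). Adamts9 is the gene whose interval, 0.34 to 0.83, lies farthest above 0, and most intervals span 0.

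The precision differed with signal. Mean signal was above the median of all probe sets, 5.32, in 28 members and at or below it in 42, and 8 of the dim members had a deposited intensity of 0 on some array. Secreted MMPs (1 of 13 above the median) and testis ADAMs (2 of 16) were mostly dim, whereas sheddases (7 of 9), membrane-bound MMPs (4 of 5) and TIMPs (3 of 4) were mostly not. The 95% interval of CKO-labelled minus control lay wholly within a 1.5-fold change for 47 of the 70 genes, and for 20 of the 28 brighter ones. For the remaining genes, Adamts9 among them, the interval reached past that size in at least one direction.

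Adamts9 encodes a secreted protease that cuts versican and aggrecan and is needed for normal valve and septum form in mice. Its representative probe set (1437785_at) read 8.30, 8.76, 8.43, 8.67 and 8.60 in CKO-labelled arrays, 7.84, 8.10 and 8.07 in double heterozygous arrays, and 7.88, 8.01 and 8.0 in control arrays. Every CKO-labelled array was above every array of the other groups, which overlapped each other. The means were 8.55 ± 0.19 in CKO-labelled (SD, n = 5), 8.0 ± 0.14 in double heterozygous (n = 3) and 7.97 ± 0.073 in control arrays (n = 3). The difference from control was 0.59 (standard error 0.114, 95% interval 0.34 to 0.83, limma adjusted p = 0.0195), which is 1.5-fold. Against double heterozygous hearts it was 0.55 (95% interval 0.30 to 0.79, adjusted p = 0.0571) and missed the threshold, and double heterozygous minus control was 0.04.

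The call was close to the threshold and depended on the processing. It was kept in 13 of 24 alternatives, and the difference stayed positive in all 24. It was lost without control replicate 1 (0.54, adjusted p = 0.145), control replicate 2 (0.61, 0.0905), control replicate 3 (0.61, 0.0888) or CKO replicate 5 (0.57, 0.0554). With the replicate number as a block it was 0.53 (adjusted p = 0.0570). The other 2 Adamts9 probe sets were not called: 1430352_at differed by 0.55 (adjusted p = 0.41) and 1431399_at by -0.00. In 1430352_at the CKO-labelled arrays read 6.31, 6.78, 5.74, 6.91 and 7.0, against 6.47, 5.48 and 6.24 in double heterozygous and 5.83, 5.91 and 6.27 in control arrays, so the groups overlapped. Without CKO replicate 1 the difference from double heterozygous hearts was called (0.61, adjusted p = 0.0255), as it was without CKO replicate 3 (0.58, adjusted p = 0.0347).

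**Figure D2:**
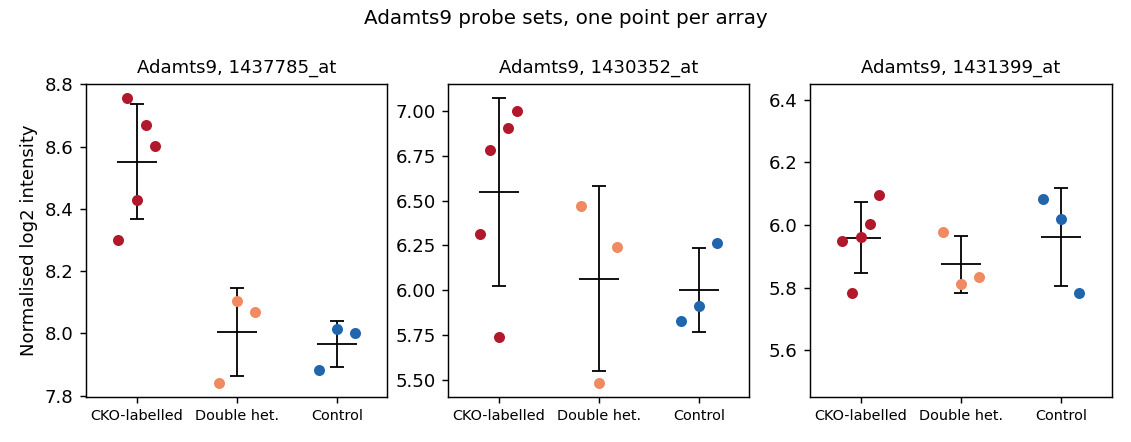
Normalised log2 intensity of the 3 Adamts9 probe sets in each array, by group, with the mean and SD as a black bar. In 1437785_at all 5 CKO-labelled points (8.30 to 8.76) lie above the double heterozygous (7.84 to 8.10) and control points (7.88 to 8.01), in 1430352_at the groups overlap, and in 1431399_at they do not differ visibly.

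Some markers of endothelium moved in the same samples, not all in 1 direction. Summed intensity of 8 endothelial and endocardial markers was 2627 to 3101 in CKO-labelled, 2266 to 2348 in double heterozygous and 2346 to 2434 in control arrays, and no marker was at 0 in every array. Of these 8, 2 rose (Kdr by 0.68 and Cdh5 by 0.63) and 1 fell (Tek, -0.65) against control. The called markers were 37.5% of the list, against 2.09% of all genes and 3.21% of those above the median signal. Like the other lists, it was chosen with earlier results of these data known, so this share does not measure enrichment. The other markers were not called, and 7 of the 8 differences were above 0. The Kdr call was lost without control replicate 1 (0.63) or 2 (0.65). The Cdh5 call was lost without any 1 control array (0.60 to 0.65) or CKO replicate 5 (0.57). Both calls were also lost on the deposited scale (0.54 for Kdr and 0.48 for Cdh5), with median centring (0.54 and 0.47) and with no moderation. Cdh5 lost its call with the mean of its probe sets (0.36), the replicate block (0.55) or no intensity trend. A fit of the CKO-labelled and control arrays alone (0.63) ended it too. A second Cdh5 probe set differed by 0.09. The part of these markers in the Adamts9 difference was not tested. Markers of cushion mesenchyme summed to 1330 to 2108 in CKO-labelled, 1988 to 2258 in double heterozygous and 1895 to 2262 in control arrays. Proepicardial markers summed to 423.2 to 1035 in CKO-labelled, 587.2 to 940.7 in double heterozygous and 1206 to 1299 in control arrays. Against control, 2 of the 9 cushion markers were above 0 (Col1a1 the most, 0.93) and 7 below, none called. Of the 8 proepicardial markers 1 was above 0 (Wt1, 0.23) and 7 below, with 2 called lower (25%, against 2.09% of all genes). That share does not measure enrichment either. In double heterozygous hearts all 8 were below control, none called.

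The following promoter windows, 250 bases before the annotated start, are from RefSeq (GRCm38.p6). Adamts9 is shown because it was the member that rose, Vcan because it encodes versican and also rose, and Adam19 as a member with letters of the GATA motif at 1 of its 3 annotated starts. Capitals mark the GATA motif (AGATAA, or the same letters with T first, with G last, or with both) and the hypoxia response core (ACGTG or GCGTG), both searched on either strand. Of 32851 promoters, 26.5% held the GATA letters and 38.6% the hypoxia letters, and of the 41 members with a promoter in the table the counts were 8 and 21.
Adamts9, chr6:92943535-92943784, minus strand: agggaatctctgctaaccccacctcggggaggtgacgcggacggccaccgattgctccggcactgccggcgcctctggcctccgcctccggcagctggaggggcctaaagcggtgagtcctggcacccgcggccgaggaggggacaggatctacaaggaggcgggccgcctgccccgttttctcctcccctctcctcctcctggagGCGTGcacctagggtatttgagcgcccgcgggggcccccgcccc
Vcan, chr13:89742513-89742762, minus strand: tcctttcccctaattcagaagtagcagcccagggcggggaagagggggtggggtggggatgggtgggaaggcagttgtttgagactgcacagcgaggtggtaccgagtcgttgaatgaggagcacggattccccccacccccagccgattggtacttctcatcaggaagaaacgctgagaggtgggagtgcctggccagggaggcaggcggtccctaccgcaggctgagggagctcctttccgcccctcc
Adam19, chr11:46054252-46054501, plus strand: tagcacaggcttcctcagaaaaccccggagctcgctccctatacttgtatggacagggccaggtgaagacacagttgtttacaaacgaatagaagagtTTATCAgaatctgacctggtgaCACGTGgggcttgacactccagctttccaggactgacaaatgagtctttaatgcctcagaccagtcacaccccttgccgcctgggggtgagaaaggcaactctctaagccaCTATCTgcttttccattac
The Adamts9 window held 1 match to the hypoxia core and no GATA match, the Vcan window held neither, and this Adam19 window held 2 GATA matches beside a CACGTG that reads as the hypoxia core on both strands. The windows at the other 2 Adam19 starts held 0 GATA matches and 1 hypoxia match each. A match describes letters, not a bound site.

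Among the other ADAMTS genes known to cut proteoglycans, none was called. With Adamts9, the list of 7 held 3 genes above 0 and 4 below, with a median difference from control of -0.04. Adamts1, needed for trabecular matrix breakdown in the mouse heart, read 8.14, 7.96, 8.51, 8.66 and 8.31 in CKO-labelled arrays, 8.17, 8.38 and 8.33 in double heterozygous arrays, and 8.17, 8.16 and 8.20 in control arrays. The CKO-labelled arrays spread on both sides of the others, and the difference from control was 0.13 (95% interval -0.15 to 0.42). Adamts5, a protease of valve remodelling, read 5.29, 5.33, 4.50, 6.70 and 5.70 in CKO-labelled arrays, 5.38, 4.98 and 5.53 in double heterozygous and 5.46, 5.69 and 5.83 in control arrays. Its lowest and its highest array of all 11 were both CKO-labelled, and the mean differed from control by -0.15 (95% interval -0.87 to 0.56). Adamts8, dim in most arrays, differed from control by 0.33 (adjusted p = 0.555), and Adamts4 by -0.10. Adamts15 read 6.03, 6.12, 5.98, 6.16 and 6.20 in CKO-labelled arrays, 6.20, 6.34 and 6.16 in double heterozygous arrays, and 6.22, 6.29 and 5.94 in control arrays. Its groups overlapped, as did those of the dim Adamts20, a protease of melanoblast survival in mice, which differed by -0.04.

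The 8 other ADAMTS genes, among them Adamts10 and Adamts6 of fibrillin assembly and Adamts3 of procollagen processing, had 5 differences above 0 and 3 below, with a median of 0.12. None was called, and the largest was Adamts18 at 0.27. Adamts10 read 7.48, 7.54, 7.38, 7.62 and 7.57 in CKO-labelled arrays, 7.37, 7.05 and 7.44 in double heterozygous arrays, and 7.28, 7.44 and 7.45 in control arrays, and differed from control by 0.13 (adjusted p = 0.709). The 5 ADAMTS-like genes, which lack a protease domain and bind matrix, had 3 above 0 and 2 below against control (median 0.24), and 5 above 0 against double heterozygous hearts (median 0.22). None of them was called. Adamtsl2, which binds fibrillin and is mutated in human geleophysic dysplasia, differed from control by 0.24 (adjusted p = 0.603), and by 0.11 without CKO replicate 2.

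Among MMP genes none was called. Mmp2 encodes gelatinase A, which cuts denatured collagen and type IV collagen. It read 7.91, 8.29, 8.10, 8.09 and 8.36 in CKO-labelled arrays, 7.79, 8.13 and 7.99 in double heterozygous arrays, and 7.61, 7.66 and 7.93 in control arrays. The CKO-labelled arrays lay above the control arrays but for a narrow overlap, and the double heterozygous arrays overlapped both groups. Mmp2 differed from control by 0.42 (standard error 0.125, 95% interval 0.16 to 0.69, adjusted p = 0.124), and a second Mmp2 probe set differed by 0.29. With arrays weighted by quality it was called (0.42, adjusted p = 0.0412).

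Mmp14, a membrane-bound protease that activates pro-Mmp2, read 8.11, 8.40, 8.27, 8.03 and 8.19 in CKO-labelled arrays, 8.36, 8.25 and 8.26 in double heterozygous arrays, and 8.17, 8.28 and 8.25 in control arrays. Its difference from control was -0.03, with a 95% interval of -0.24 to 0.18 that leaves out a change of 1.5-fold in that probe set. The 2 dimmer Mmp14 probe sets differed by -0.34 and 0.22, in opposite directions, and neither was called. Without CKO replicate 2 those differences were -0.27 and 0.13.

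Mmp23, a membrane-anchored metalloproteinase, had the lowest difference of the family. It read 4.73, 5.19, 5.22, 5.33 and 5.31 in CKO-labelled arrays, 5.22, 5.43 and 5.26 in double heterozygous arrays, and 5.61, 5.53 and 5.85 in control arrays. Every array of the 2 Cre-carrying groups was below every control array. The other membrane-bound members Mmp16, Mmp17 and Mmp24 differed from control by -0.06, 0.32 and -0.17, with none called, and Mmp17 by 0.21 without CKO replicate 2. A second Mmp24 probe set differed by 0.39, opposite in sign to the first. For Mmp23 the difference from control was -0.50 in CKO-labelled (standard error 0.163, adjusted p = 0.162) and -0.36 in double heterozygous hearts. A second Mmp23 probe set differed by -0.10 from control in CKO-labelled hearts. The 13 secreted MMPs had 4 differences above 0 and 9 below (median -0.02). They included Mmp9, or gelatinase B, at -0.03, and 9 that lie next to each other in a run on chromosome 9 (Mmp13, Mmp12, Mmp1b, Mmp3, Mmp1a, Mmp10, Mmp8, Mmp20 and Mmp7). All 9 were dim, none was called, and they differed from control by -0.34 to 0.26. Mmp11, stromelysin 3, differed by -0.02 from control and 0.39 from double heterozygous hearts, with neither called.

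**Figure D3:**
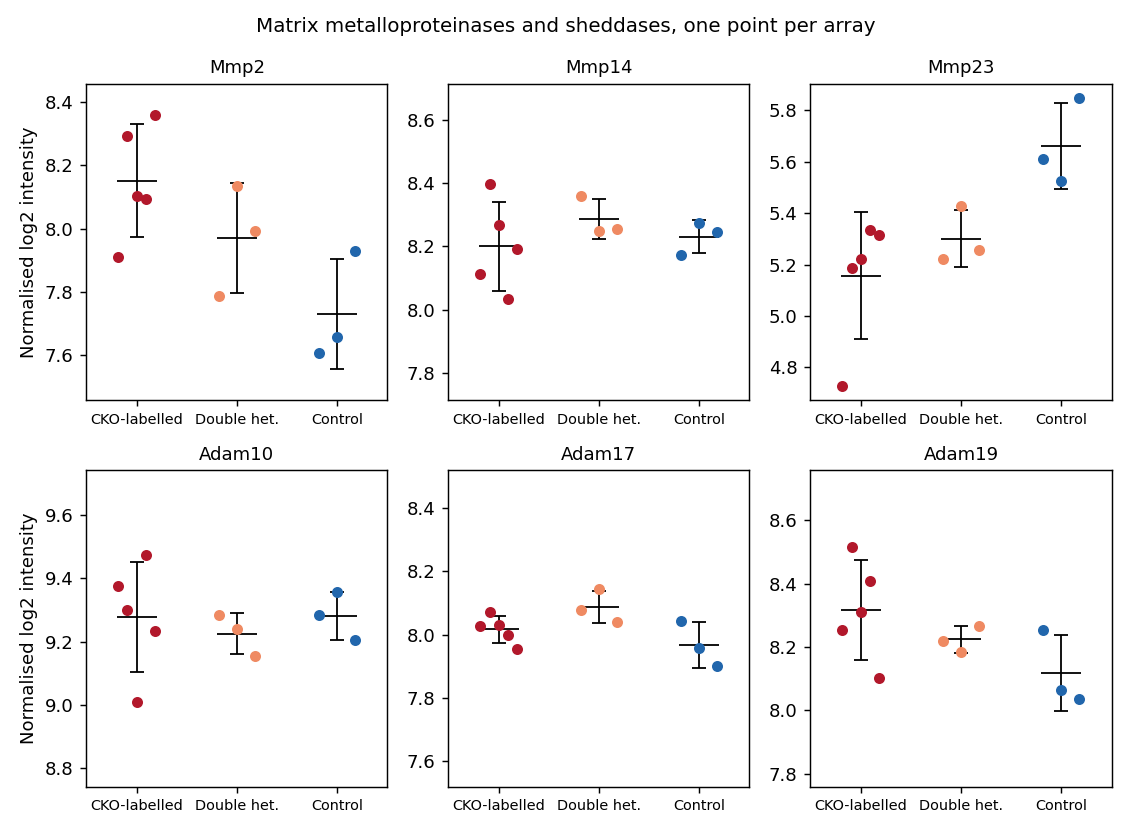
Normalised log2 intensity in each array for 3 MMP and 3 ADAM genes, by group, with the mean and SD as a black bar. Mmp2 differs by 0.42 and Mmp23 by -0.50 between CKO-labelled and control arrays, neither called, while Mmp14, Adam10 and Adam17 lie at nearly the same level in all 3 groups.

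The 4 TIMP genes had 2 differences above 0 and 2 below, and none was called. Timp1, a broad MMP inhibitor, read 6.19, 6.81, 6.68, 6.07 and 6.14 in CKO-labelled arrays, 6.49, 6.81 and 6.78 in double heterozygous arrays, and 6.94, 6.60 and 6.74 in control arrays. CKO replicates 1, 4 and 5 lay below every other array, and CKO replicates 2 and 3 lay within the range of the double heterozygous and control arrays. The difference from control was -0.38 (standard error 0.177, 95% interval -0.76 to -0.00, adjusted p = 0.371). CKO replicates 2 and 3 are the arrays that stood apart in actin signal and in intensity; without both, in a comparison added after seeing the data, Timp1 was called at -0.63 against control (adjusted p = 0.0191) and at -0.56 against double heterozygous hearts (adjusted p = 0.0472). What in these 2 arrays moved with it was not tested.

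Timp2, which also takes part in the activation of pro-Mmp2, read 8.30, 8.55, 8.50, 8.13 and 8.44 in CKO-labelled arrays, 8.34, 8.46 and 8.38 in double heterozygous arrays, and 8.29, 7.96 and 8.13 in control arrays. Timp2 differed from control by 0.25 in CKO-labelled (adjusted p = 0.334) and 0.26 in double heterozygous hearts, where the groups did not overlap. Its 5 other probe sets differed from control by -0.30 to 0.17, so the sign depended on the probe set. Timp3, a matrix-bound inhibitor that also blocks Adam17, read 7.36, 7.21, 7.70, 7.63 and 7.50 in CKO-labelled, 7.42, 7.42 and 7.37 in double heterozygous and 7.13, 7.42 and 7.60 in control arrays. Timp3 differed by 0.09, and the dim Timp4 by -0.11. The other Timp3 probe sets differed by 0.23, -0.18 and -0.18, and without CKO replicate 2 by 0.34, -0.07 and -0.06.

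**Figure D4:**
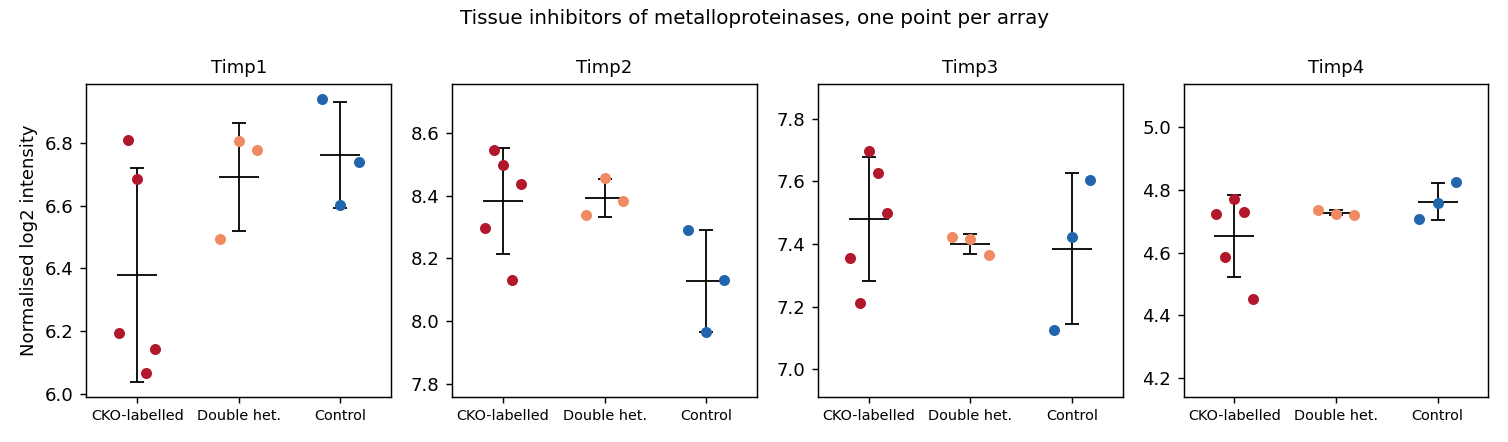
Normalised log2 intensity of the 4 TIMP genes in each array, by group, with the mean and SD as a black bar. In Timp1, 3 CKO-labelled points (6.07 to 6.19) lie below all other points and 2 lie with them.

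None of the 9 sheddase ADAM genes was called. Adam10, the sheddase of Notch receptors, read 9.38, 9.30, 9.01, 9.47 and 9.23 in CKO-labelled arrays, 9.28, 9.24 and 9.15 in double heterozygous arrays, and 9.29, 9.36 and 9.21 in control arrays. The difference from control was -0.00 with an interval of -0.21 to 0.21, and the 3 other Adam10 probe sets differed by -0.46, -0.55 and 0.33. The first 2 of these were lowest in CKO replicate 2 and differed by -0.17 and -0.19 without it, and the third was highest in CKO replicate 3 and differed by 0.14 without it. Adam17, which releases tumour necrosis factor and several ligands of the epidermal growth factor receptor, read 8.03, 8.07, 8.03, 8.0 and 7.96 in CKO-labelled arrays, 8.08, 8.14 and 8.04 in double heterozygous arrays, and 8.04, 7.96 and 7.90 in control arrays. The difference was 0.05 (-0.14 to 0.24). On these representative probe sets the intervals of both genes lay within a 1.5-fold change. The other Adam17 probe sets differed by -0.10 and -0.40, and without CKO replicate 2 by -0.07 and -0.16.

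Adam19, whose loss causes valve and septal defects in mice, read 8.25, 8.52, 8.31, 8.41 and 8.10 in CKO-labelled arrays, 8.22, 8.19 and 8.27 in double heterozygous arrays, and 8.25, 8.06 and 8.04 in control arrays. The groups overlapped, and the difference from control was 0.20 (-0.02 to 0.42, adjusted p = 0.445). A second Adam19 probe set differed by -0.16, and by -0.03 without CKO replicate 2. Among the other sheddases, Adam33 differed by 0.40, Adam15 by 0.24, Adam12 by 0.15, Adam9 by -0.12 and Adam8 by -0.19, none of them called. A second Adam12 probe set differed by -0.43, opposite in sign to the first, and by -0.22 without CKO replicate 2, its lowest array. Adam9, a widely expressed sheddase, read 8.91, 8.78, 8.66, 8.99 and 8.82 in CKO-labelled arrays, 8.85, 8.98 and 8.76 in double heterozygous arrays, and 8.93, 9.07 and 8.86 in control arrays. Adam15, which carries an integrin-binding motif, read 7.71, 7.81, 8.26, 7.77 and 8.17 in CKO-labelled arrays, 7.73, 7.61 and 7.82 in double heterozygous arrays, and 7.56, 7.82 and 7.72 in control arrays. In Adam15 CKO replicates 3 and 5 were above all other arrays and the remaining CKO-labelled arrays were not, and without CKO replicate 3 its difference was 0.16. The 3 ADAMs of the nervous system that lack a catalytic site, Adam11, Adam22 and Adam23, differed from control by 0.17, -0.13 and -0.16.

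The 16 ADAM genes known from testis and epididymis had 10 differences above 0 and 6 below (median 0.06), and none was called. Adam6a read 6.88 in double heterozygous replicate 1 and 4.04 to 4.49 in the other 10 arrays. That 1 array set its differences of 1.01 for double heterozygous minus control and -0.93 for CKO-labelled minus double heterozygous. Adam6b likewise read 6.11 in CKO replicate 3 and 4.37 to 4.59 in the other 4 CKO-labelled arrays, and its difference from control was 0.44 with that array and 0.12 without it. Adam1a differed by -0.38 and Adam3 by -0.33 from control.

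The groups did not overlap for 4 members between CKO-labelled and control hearts (Adamts9 and Adam32 higher, Adam1a and Mmp23 lower; 5.71%, against 12.3% of all genes, 4.7% higher and 7.55% lower). Between double heterozygous and control hearts they did not overlap for 8 (11.4%, against 11.1% of all genes, 4.89% higher and 6.22% lower). These were Adam12, Adam28, Adam33, Adam7, Adamts19 and Timp2, which were higher, and Adam23 and Mmp23, which were lower. Between CKO-labelled and double heterozygous hearts Adamts9 was the 1 such member (1.43%, against 9.19% of all genes, 3.65% higher and 5.54% lower). Of 32 members with more than 1 probe set, all probe sets had the same sign in 18 for CKO-labelled minus control.

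Among 33 measured genes of the matrix that these enzymes act on, 3 rose (Vcan, Sparc and Col5a1) and 2 fell (Hapln1 and Col2a1) in CKO-labelled against control hearts. These 5 were 15.2% of the list, against 2.09% of all genes and 3.21% of all genes above the median signal. Of the list, 30 of 33 were above that median. This list and the other gene lists below were chosen with earlier results of these data known, so their shares do not measure enrichment. Vcan encodes versican, the substrate of Adamts9, and read 11.18, 11.15, 11.10, 11.37 and 11.18 in CKO-labelled arrays, 10.82, 10.78 and 10.85 in double heterozygous arrays, and 10.72, 10.76 and 10.80 in control arrays. It was higher in every CKO-labelled array, by 0.43 against control (standard error 0.0662, adjusted p = 0.00375) and by 0.38 against double heterozygous hearts (adjusted p = 0.0215). Of its 8 probe sets, 7 were above 0 and 1 was called. The call against control held in 20 of 24 alternatives and was lost on the deposited scale (0.28), with median centring (0.27), with the mean of its probe sets (0.29) and with no intensity trend (0.43). The call against double heterozygous hearts was kept in 13 of 24. It was lost on the deposited scale (0.25), with median centring (0.21), with the mean of its probe sets (0.22), with the replicate block (0.33), and, at 0.38, with no intensity trend, with no moderation and in the CKO-labelled and double heterozygous arrays alone. It was also lost without double heterozygous replicate 1 (0.38), 2 (0.36) or 3 (0.39), or without CKO replicate 5 (0.38).

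Hapln1 encodes the link protein that joins versican to hyaluronan. It read 9.10, 9.21, 9.11, 9.12 and 8.86 in CKO-labelled arrays, 9.71, 9.54 and 9.65 in double heterozygous arrays, and 9.74, 9.78 and 9.84 in control arrays. It fell in all 5 arrays, by 0.71 against control (standard error 0.0861, adjusted p = 0.000566) and by 0.56 against double heterozygous hearts (adjusted p = 0.00972). All 4 of its probe sets were lower and called against control, and that call held in 24 of 24 alternatives. The second call was kept in 17 of 24, and was lost without double heterozygous replicate 1 (-0.52, adjusted p = 0.129) or 3 (-0.55, 0.0593). Has2, which makes hyaluronan, was lower in CKO-labelled than in double heterozygous hearts (-0.52, adjusted p = 0.0431) and differed by -0.33 from control (adjusted p = 0.144). The Has2 call did not hold in 13 of 24 alternatives, and leaving out any 1 control or double heterozygous array, CKO replicate 4 or CKO replicate 5 ended it, at -0.47 to -0.55. Col2a1, the type II collagen gene, fell by 0.83 against control (adjusted p = 0.000514), in 24 of 24 alternatives. From double heterozygous hearts it differed by -0.49, a call at the very threshold (adjusted p = 0.0499998). That call was lost without any 1 control or double heterozygous array, among other alternatives. Double heterozygous minus control was -0.34 for Col2a1. Sparc, which encodes a collagen-binding protein, rose by 0.52 (adjusted p = 0.0261), a call lost without control replicate 1 (0.49), control replicate 2 (0.43) or CKO replicate 5 (0.53). The Sparc call was also lost on the deposited scale (0.37), with median centring (0.36), no intensity trend or no moderation. The replicate block (0.59) and the CKO-labelled and control arrays alone (0.53) ended it too. Col5a1, a fibril collagen gene, rose by 0.44 (adjusted p = 0.0321), and its call was kept in 10 of 24 alternatives. It was lost without any 1 control array (0.36 to 0.48), any 1 double heterozygous array (0.44) or CKO replicate 5 (0.46). From double heterozygous hearts Sparc differed by 0.31 (adjusted p = 0.261) and Col5a1 by 0.27 (adjusted p = 0.267), neither called.

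**Figure D5:**
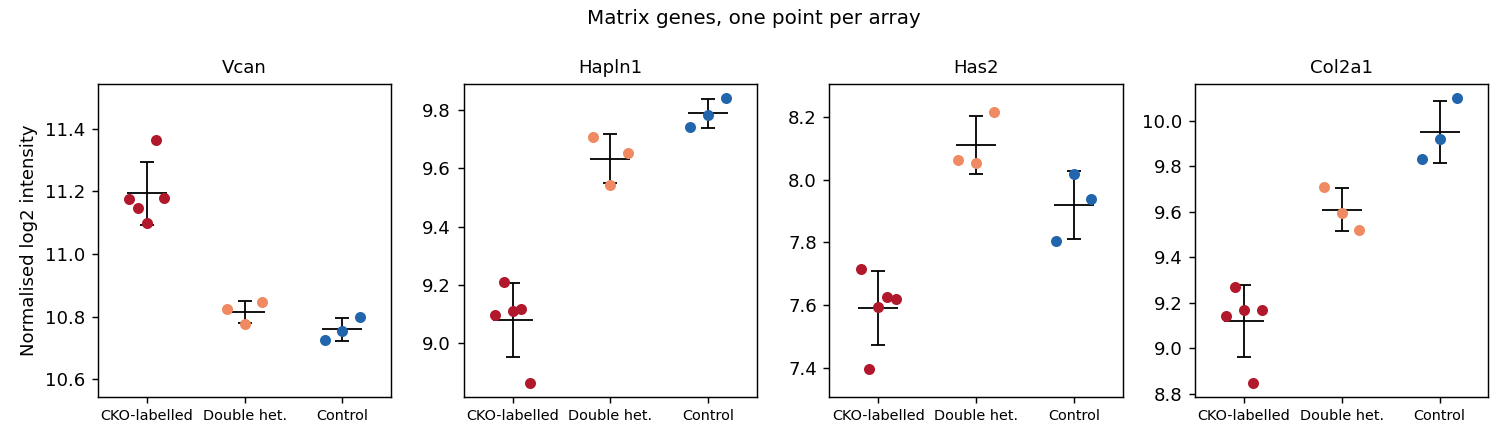
Normalised log2 intensity of 4 matrix genes in each array, by group, with the mean and SD as a black bar. CKO-labelled points lie above the others in Vcan (11.10 to 11.37) and below them in Hapln1 (8.86 to 9.21), Has2 and Col2a1.

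None of 21 measured plasminogen-system and other secreted protease genes was called. Plat, tissue plasminogen activator, differed by -0.71 (adjusted p = 0.0732). Htra3 had the highest difference, 0.90, and read 7.4 and 6.88 in CKO replicates 4 and 5 and 4.79 to 5.86 in the other arrays. Htra1 read 9.56 and 8.65 in these 2 arrays and 5.33 to 7.85 in the others. Of 19 measured genes listed under inhibitors and clearance 1 rose (5.26%, against 2.09% of all genes). This was Serpinf1, which encodes a secreted serpin, at 0.73 (adjusted p = 0.0268). Its place in the list does not mean that its product inhibits proteases, and protease inhibition was not measured. Reck, a membrane inhibitor of MMPs, differed by 0.06. A2m had the highest difference of this list, 1.38, and was not called. It read 9.02 and 8.75 in CKO replicates 4 and 5 and 5.65 to 6.77 in the other arrays. Why these 2 arrays read high in A2m, Htra1 and Htra3 was not tested. The Serpinf1 call did not hold in 10 of 24 alternatives, including those without control replicate 1 (0.62), control replicate 2 (0.67), double heterozygous replicate 1 (0.72) and CKO replicate 5 (0.67). Serpinf1 differed by 0.47 from double heterozygous hearts (adjusted p = 0.214, not called). None of 11 genes for proprotein convertases and ADAM regulators was called; Furin differed by 0.19 and Pcsk6 by -0.64 (adjusted p = 0.187). Of 15 measured zinc metalloprotease genes outside the 4 families 1 fell (6.67%), Enpep, which encodes the membrane-bound aminopeptidase A. Enpep differed from control by -0.90 (adjusted p = 0.0321) and from double heterozygous hearts by -0.91 (adjusted p = 0.0609). Its call against control was kept in 14 of 24 alternatives and was lost without any 1 control array (-0.87 to -0.93), double heterozygous replicate 1 (-0.89) or 3 (-0.90), or CKO replicate 5 (-0.81).

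Of 34 measured genes for shed membrane proteins 4 rose (Kdr, Notch4, Cdh5 and Jag1) and 2 fell (Tek and Cd44) against control. They were 17.6% of the list, against 2.09% of all genes and 3.21% of those above the median signal, where 28 of the 34 lay. This list, too, was chosen with earlier results known. Kdr, Cdh5 and Tek are also among the endothelial markers above. Notch4, a Notch receptor of endothelium, rose by 0.80 (adjusted p = 0.0123), and Jag1, a Notch ligand, by 0.46 (adjusted p = 0.0450). All 4 rises were lost without control replicate 1, at 0.63 for Kdr (adjusted p = 0.0739), 0.78 for Notch4 (0.0904), 0.60 for Cdh5 (0.131) and 0.46 for Jag1 (0.221). The Notch4 call was also lost without control replicate 3 (0.73) and with the mean of its probe sets (0.24). The deposited scale (0.73), median centring (0.72) and no moderation (0.80) ended it too. Against double heterozygous hearts 2 of the 34 were called (0.55% of all genes were). These were Kdr at 0.68 (adjusted p = 0.0177) and Notch4 at 0.73 (adjusted p = 0.0473). This Kdr call was lost without double heterozygous replicate 1 (0.62) or 2 (0.67) and with the replicate block (0.64). Other scalings (0.56 and 0.51), no intensity trend and no moderation ended it too. This Notch4 call was lost without any 1 control or double heterozygous array (0.64 to 0.78). It was also lost without CKO replicate 1, 2, 4 or 5 (0.66 to 0.75) and with the mean of its probe sets (0.25). The Jag1 call was kept in 9 of 24 alternatives, and was lost without any 1 control or double heterozygous array, CKO replicate 4 (0.40) or CKO replicate 5 (0.49). Jag1 differed from double heterozygous hearts by 0.24 (adjusted p = 0.382). The Tek call against control held in 24 of 24 alternatives. Tek differed by -0.34 from double heterozygous hearts (adjusted p = 0.126, not called), and double heterozygous minus control was -0.31. Cd44 encodes the hyaluronan receptor and averaged 8.82 in CKO-labelled, 8.97 in double heterozygous and 9.37 in control arrays. It differed from control by -0.55 in CKO-labelled hearts (adjusted p = 0.00308, a call kept in 23 of 24) and by -0.41 in double heterozygous hearts, which was not called. Between CKO-labelled and double heterozygous hearts the Cd44 difference was -0.14 (adjusted p = 0.521).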

How the data were processed

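Expression was measured on 11 one-colour arrays. The deposited values are linear intensities, 1 per probe set, summarised with PLIER per the submitters' processing notes; no source used here gives its background correction, scaling or version. Per the labels' protocols, 50 ng of total RNA was amplified with an Ovation kit. Groups came from the genotype in the labels.

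Deposited intensities were turned into log2(value + 16), which understates changes of dim genes. The 64 control probe sets were left out. Array medians spanned 0.465, above the limit of 0.2, so arrays were quantile normalised. limma 3.58.1 in R 4.3.3 fitted 1 coefficient per group to all 11 arrays and 45037 probe sets, with empirical Bayes moderation and an intensity trend (15.07 degrees of freedom). P-values were two-sided and adjusted by Benjamini-Hochberg over all probe sets; a call is an adjusted p under 0.05. The fit was tested on simulated data.

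One-symbol probe sets numbered 34945, several-symbol 932 and unnamed 9160. All 70 members matched RefSeq by Entrez ID. The 124 member probe sets leave out 5 with several symbols. The named genes are every called member, the 6 largest rises and falls per comparison, a fixed set of well-known members and, from 6 gene lists, the called genes and up to 3 others by smallest p. Mmp15 is not measured by a probe set of its own. The comparisons share control or CKO arrays, so their values are given side by side. The members and lists were chosen with earlier results of these data known. Same-numbered replicates were not treated as pairs: correlations of their deviations ran from -0.0557 to 0.15. No 2 arrays shared more than 0.828% of values. The number of arrays limits the precision. Alternatives were other offsets, scalings, filters, probe set rules, moderation, array weights, the replicate block and leaving out arrays.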

Additional observations from a re-analysis of the deposited data

Results flagged for a closer look

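Single arrays stood apart from the other arrays of the CKO-labelled group in 6 of the 41 named member genes tested. Many of these genes were named for large differences in these same values, so no chance rate is set beside the count. Adam5 read 5.30 in CKO replicate 3, against 4.89 to 4.97 in the other 4 arrays. Adam6b read 6.11 in CKO replicate 3, against 4.37 to 4.59. Adamts8 read 4.23 in CKO replicate 5, against 4.80 to 4.93. Mmp17 read 5.84 in CKO replicate 2, against 5.24 to 5.39. Mmp1b read 4.38 in CKO replicate 1, against 4.0 to 4.04, where 4.0 is a deposited intensity of 0. Mmp23 read 4.73 in CKO replicate 1, against 5.19 to 5.33. None of the 6 genes was called in any comparison.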

How the results depend on the processing

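The count of called members was 1 for CKO-labelled minus control. It was 0 on the deposited scale, with median centring, with the mean of each gene's probe sets, with no intensity trend, with no moderation, with the replicate block and in a fit of the CKO-labelled and control arrays alone. It was 2 with array weights (Adamts9 and Mmp2) and 2 without CKO replicates 2 and 3 together (Adamts9 and Timp1). Leaving out 1 array at a time gave 0 to 1, with 0 without any 1 control array or CKO replicate 5. For CKO-labelled minus double heterozygous the count was 0. It was 1 with the filter on dim probe sets or array weights, 2 without CKO replicates 2 and 3 together, and 0 to 1 with 1 array left out. The F-test count was 1. It was 0 on the deposited scale, with median centring, the mean of probe sets, no intensity trend, no moderation or the replicate block, 2 without CKO replicates 2 and 3 together, and 0 to 1 with 1 array left out. For double heterozygous minus control it was 0 under every alternative. The cause of these shifts was not tested. Over all 45037 probe sets, the CKO-labelled minus control count was 632; it was 92 on the deposited scale, 362 with median centring, 281 with no trend, 296 with no moderation, 2393 with array weights, 265 with the replicate block, 263 with those 2 groups alone, 1362 without CKO replicates 2 and 3 and 168 to 897 with 1 array left out. The comparison without CKO replicates 2 and 3 was chosen after seeing the data. No called difference of a named gene changed sign. Signal near background limits the dim members, whose fold changes are understated.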
